A study of Mus musculus with 8 samples.

Results

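Microglia from mice that carry both a conditional deletion of Calhm2 and an Alzheimer's disease model (cKO/AD) were set against microglia from healthy wild-type mice (WT), and every gene was asked whether it sat at the WT level or away from it. The comparison used 4 of the 8 libraries of the study, 2 cKO/AD and 2 WT, chosen by their group labels alone. All mice were C57BL/6 and 6 months old; RNA of isolated brain microglia was harvested with Trizol and made into TruSeq libraries. The cKO/AD mice carry the Calhm2 deletion and the disease model together, so the comparison with WT spans both changes at once. WT/AD microglia (2 libraries, disease model with Calhm2 intact) are given where the distance from WT has to be read against the diseased state, and the cKO microglia (2 libraries, deletion without disease) served only in the estimate of the spread. The labels name neither the disease model nor the Cre driver and do not say whether animals were pooled; the 2 libraries of a group carry different numbers, with no statement that they are separate animals, so a p-value measures only the spread between these libraries. Of 55421 genes in the count table, 24007 had no count in the 4 libraries, and 22089 were tested.

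CALHM2 belongs to a family of large-pore membrane channels, gated by voltage and extracellular calcium, that can let calcium and ATP pass. Microglia are the resident macrophages of the brain: in the healthy brain they express a homeostatic set of receptors that sense ATP breakdown products, fractalkine and colony stimulating factor. Around amyloid plaques they lose part of that set and take on a disease-associated programme of lipid handling, lysosomal and secreted genes, which in mouse models depends in part on the receptor TREM2 and its adaptor TYROBP.

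The deletion was visible in the targeted gene. Calhm2 had 2.496 and 1.56 CPM (counts relative to library size, scaled by TMM factors) in the cKO/AD libraries, against 10.2 and 12.02 CPM in the WT libraries. The groups lay apart, with a log2 fold change of -2.46 ± 0.47 (SE; adjusted p = 0.0297, edgeR's quasi-likelihood test with Benjamini-Hochberg adjustment over all tested genes). In a fit corrected for GC content the difference was -1.89 and its adjusted p was 0.0782.

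Depth was alike, while the make-up of the cKO/AD libraries differed from that of the WT libraries. Total counts were 20188506 and 22416026 in cKO/AD and 21167329 and 20285194 in WT. A count was present for 18693 and 22088 genes in cKO/AD and for 25988 and 25915 genes in WT, and mitochondrially encoded RNA took 4.73% and 2.36% of the cKO/AD counts and 1.71% and 1.45% of the WT counts. The cKO/AD libraries also resembled each other less (correlation of log2 CPM 0.843) than the WT libraries did (0.93). Among the microglial markers, the summed level of 9 genes was 12992 and 19459 CPM in cKO/AD and 35672 and 38629 CPM in WT, and none of the 9 was at 0 in either group; in bulk RNA, fewer cells of a type and less RNA per cell cannot be told apart.

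Most tested genes could be placed neither at the WT level nor away from it. In cKO/AD, 768 genes were higher than in WT (3.48% of those tested) and 1185 were lower (5.36%), at an adjusted p under 0.05. For another 2801 genes (12.7%) the whole 95% interval of the fold change lay within 2-fold of WT, and these are called genes at the WT level below. The other 17335 genes met neither rule, and for 8721 of them the interval spanned more than 4 log2 units. Placement at the WT level went with abundance: it was reached by 43.8% of genes averaging over 1000 CPM in all libraries, 22.2% of genes between 10 and 100 CPM and 0.03% of genes between 1 and 10 CPM.

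**Figure D1:**
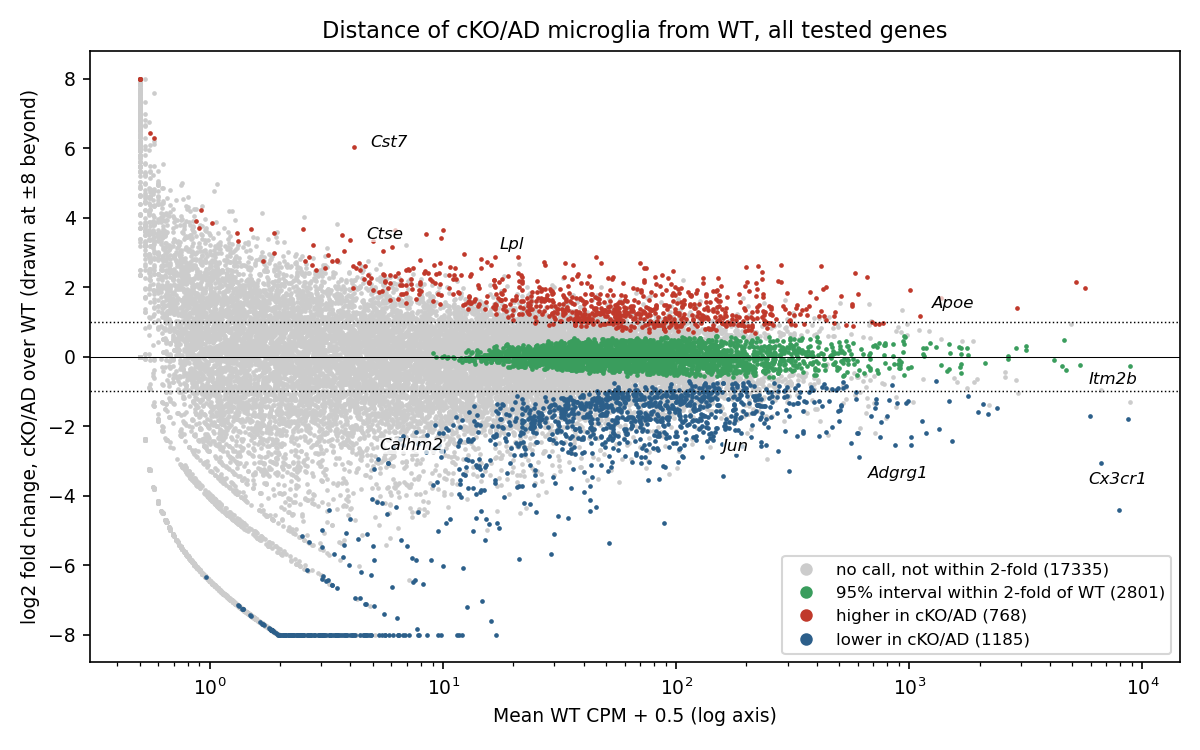
Each point is 1 of the 22089 tested genes, with the mean WT level (CPM + 0.5, log axis) on the horizontal axis and the log2 fold change of cKO/AD over WT on the vertical axis; dotted lines mark 2-fold. The 2801 genes at the WT level (green) lie to the right, at higher abundance, while the 768 higher (red) and 1185 lower (blue) genes lie on either side of them.

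The calls rested on small margins and on the spread pooled over all groups. The smallest adjusted p in the comparison was 0.00928, and with either WT library left out (WT replicate 1 or 2), or with only the 4 libraries in the fit, no gene passed in edgeR. At an unadjusted p under 0.05 those 3 settings gave 1459 to 1792 higher and 2264 to 2597 lower genes, where the fit of all libraries gave 2557 and 3815. No called gene that was tested there changed sign. The calls nearly fixed this in advance, because the cKO/AD and WT libraries did not overlap in any of the 768 higher and 1185 lower genes. In all 16 other settings, which include DESeq2, limma-voom, a GC correction and the omission of each of the 6 remaining libraries, 97 genes were higher every time and 72 were lower every time, and these are named as the steadiest calls below. Leaving out cKO/AD replicate 1 gave 1309 higher and 2257 lower genes, and leaving out cKO/AD replicate 2 gave 3415 higher and 5963 lower.

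Base composition moved with the difference between the groups. The median log2 fold change of cKO/AD over WT was 0.73 for genes whose longest transcript had under 40% GC, 0.07 at 45 to 50% GC and -1.38 above 60% GC. Both cKO/AD libraries showed the trend, replicate 1 from 0.89 to -1.73 and replicate 2 from 0.50 to -1.05 across these bins, whereas WT replicate 1 and WT replicate 2 differed by 0.06 at the low end and -0.04 at the high end. After a GC correction 539 genes were higher (2.44%), 422 were lower (1.91%) and 3389 were at the WT level (15.3%), so the higher genes made up 56.1% of the calls with the correction and 39.3% without it. Calls shared by both fits numbered 351 higher, 382 lower and 1635 at the WT level. The part of base composition in any single gene was not tested, and the GC-corrected value is given beside each value of a gene, against WT or WT/AD, whose call it ends or turns.

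**Figure D2:**
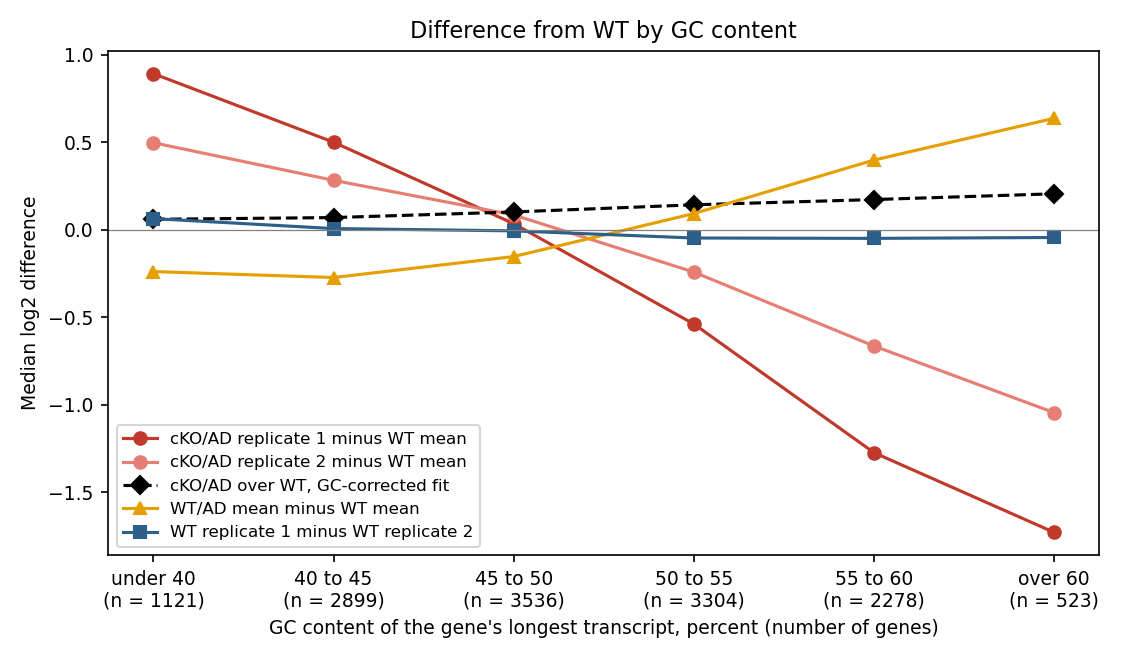
Median log2 difference from WT (vertical axis) of genes binned by the GC content of their longest transcript (horizontal axis, percent, with the number of genes), for each cKO/AD library, the GC-corrected fit, WT/AD, and the 2 WT libraries against each other. Both cKO/AD lines fall with GC content, to -1.73 and -1.05 above 60% GC, the WT/AD line climbs to 0.64 and the line of the WT replicates stays near 0.

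Part of the disease-associated programme stood above WT in cKO/AD microglia. Of 28 disease-associated microglia genes, 10 were higher in cKO/AD than in WT, none was lower, and 9 were at the WT level. Among all tested genes 3.48% were higher, 5.36% lower and 12.7% at the WT level. The last share was 22.2% for genes averaging 10 to 100 CPM and 39.9% for those at 100 to 1000 CPM. The median log2 fold change of the list was 0.55, against -0.14 over all tested genes. Cst7, which encodes the cathepsin inhibitor cystatin F, had 278 and 201 CPM in the cKO/AD libraries, against 3.61 and 3.67 CPM in the WT libraries. Its log2 fold change of 6.04 ± 0.34 (adjusted p = 0.00928) was the largest of the list, and no cKO/AD value came near a WT value.

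Receptor, lipid and secreted members of the programme followed at smaller distances. Lpl, the lipoprotein lipase, had 96.1 and 102 CPM in cKO/AD and 15.6 and 14.3 CPM in WT (log2 fold change 2.73 ± 0.21, adjusted p = 0.00928). Clec7a, which encodes the beta-glucan receptor dectin-1, had 109 and 84.5 CPM in cKO/AD and 14.1 and 17.1 CPM in WT (2.64 ± 0.23, adjusted p = 0.0109). Spp1, which encodes the secreted protein osteopontin, had 414 and 374 CPM in cKO/AD and 101 and 96.0 CPM in WT (2.00 ± 0.18, adjusted p = 0.0109). In each of these genes the 2 groups lay apart by more than the spread within either.

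The other called members were Igf1 (insulin-like growth factor), Itgax (the integrin CD11c), the chemokine gene Ccl6, the lysosomal tetraspanin gene Cd63, the phagocytic receptor gene Axl and the lipid carrier gene Apoe. Apoe was the most abundant of them, at 2361 and 2623 CPM in cKO/AD and 1124 and 1093 CPM in WT (log2 fold change 1.17 ± 0.19, adjusted p = 0.0219). Igf1 varied most within its group, at 150 and 47.5 CPM in cKO/AD and 19.0 and 9.01 CPM in WT (2.82 ± 0.53, adjusted p = 0.0298). The log2 fold changes of Itgax, Cd63, Axl and Ccl6 were 1.96, 1.22, 1.17 and 1.81. All 10 members passed with the GC correction too, and Cst7, Lpl, Clec7a, Spp1, Apoe and Ccl6 belonged to the steadiest calls.

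A chemokine and a protease outside that list behaved alike. Ccl3, a chemokine made by activated microglia, had 114 and 68.8 CPM in cKO/AD and 11.3 and 12.2 CPM in WT (log2 fold change 2.95 ± 0.30, adjusted p = 0.0118). Ctse, the aspartic protease cathepsin E, had 38.4 and 43.6 CPM in cKO/AD and 4.46 and 5.53 CPM in WT (3.04 ± 0.33, adjusted p = 0.0119). Both lay about as far above WT as Lpl and Clec7a did, and both were steadiest calls.

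How far these genes were from WT can be read beside the same genes in WT/AD, which shares the WT libraries with the comparison above; the test of the difference between the 2 distances is cKO/AD against WT/AD. Cst7 had 550 and 513 CPM in WT/AD and was lower in cKO/AD than in WT/AD (log2 fold change -1.15, adjusted p = 0.0463), a call that the GC correction ended (-0.88, adjusted p = 0.17). Apoe had 4530 and 3641 CPM in WT/AD, and its direction turned with the correction: cKO/AD was lower than WT/AD without it (-0.71, adjusted p = 0.0365) and higher with it (1.33, adjusted p = 0.032). Spp1 had 218 and 262 CPM in WT/AD and was higher in cKO/AD than there (0.71, adjusted p = 0.0321), which the GC correction ended too (0.15, adjusted p = 0.605). The calls between cKO/AD and WT/AD in these 3 genes thus changed with the correction.

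For Lpl, Clec7a, Ccl3 and Ctse no difference between cKO/AD and WT/AD passed the test. Lpl had 73.9 and 66.7 CPM in WT/AD (log2 fold change of cKO/AD over WT/AD 0.50, adjusted p = 0.13), Clec7a 84.5 and 92.8 CPM (0.13, adjusted p = 0.742), Ccl3 102 and 98.1 CPM (-0.13, adjusted p = 0.799) and Ctse 44.2 and 47.3 CPM (-0.16, adjusted p = 0.774). The 95% intervals of these differences ran from 0.03 to 0.97 for Lpl, -0.41 to 0.66 for Clec7a, -0.81 to 0.56 for Ccl3 and -0.90 to 0.59 for Ctse, on the log2 scale.

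**Figure D3:**
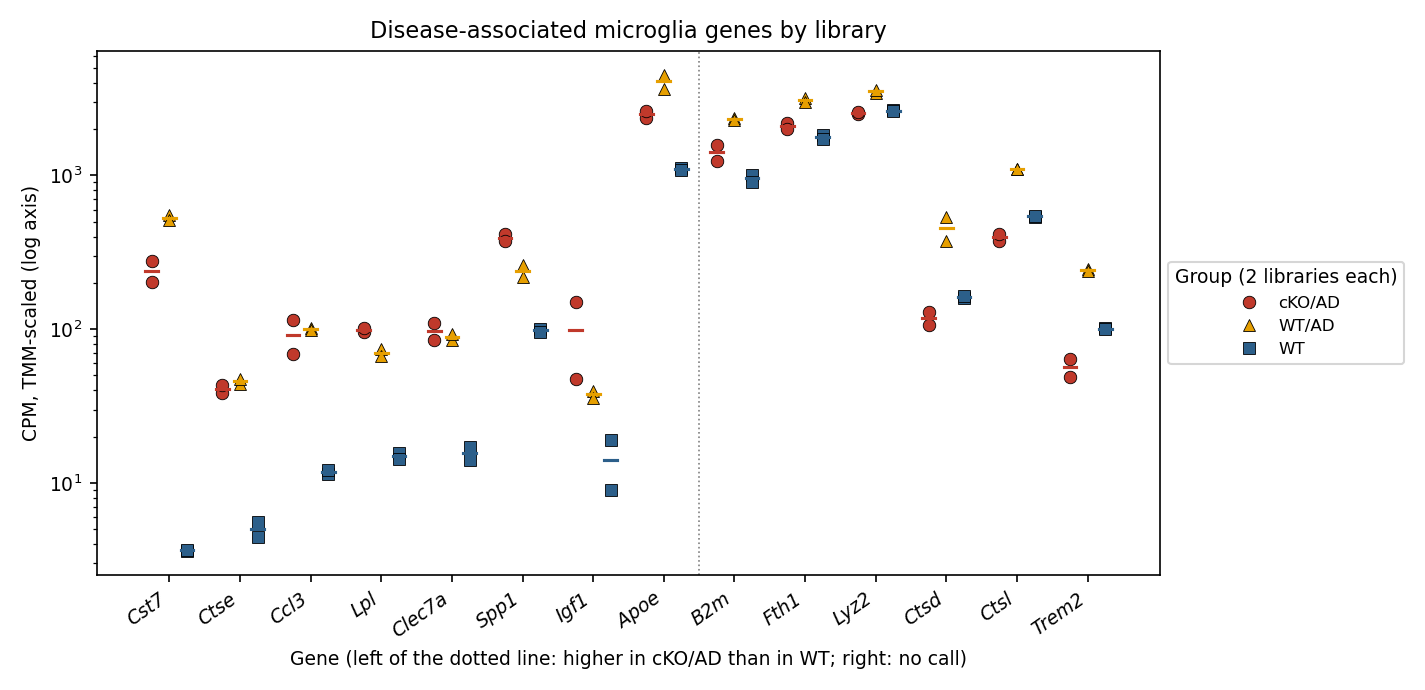
CPM per library (points, log axis) and group mean (short bars) of 14 genes in cKO/AD, WT/AD and WT microglia, 2 libraries each. Left of the dotted line are 8 genes that were higher in cKO/AD than in WT, with Cst7 farthest apart. Right of it are 6 genes not called against WT at an adjusted p under 0.05 in the fit of all libraries. Among these 6 are Ctsd, Ctsl and Trem2, whose cKO/AD points lie below the WT/AD points.

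Another 9 members of the same programme, among them lysosomal, iron and antigen-presentation genes, were at the WT level. Ctsb and Ctsl, which encode lysosomal cysteine proteases, had 2992 and 4219 CPM and 375 and 415 CPM in cKO/AD, against 3141 and 3195 CPM and 540 and 542 CPM in WT. The interval of Ctsb was -0.30 to 0.67 and that of Ctsl -0.87 to -0.04 (log2). Ctsd, the aspartic protease cathepsin D, had 107 and 130 CPM in cKO/AD and 159 and 165 CPM in WT (interval -0.996 to 0.095). Fth1, the ferritin heavy chain, Lyz2, the myeloid lysozyme, and B2m, the light chain of MHC class I, had intervals of -0.15 to 0.64, -0.45 to 0.33 and 0.12 to 0.99. Ctsz, Ank and Hif1a completed the 9. With the GC correction Ctsl, Ctsd, Ctsz and Ank left the 2-fold margin, and Ctsz (1.76, adjusted p = 0.0302) and Ank (0.95, adjusted p = 0.0489) were then higher than in WT.

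Ctsl and Trem2 were lower in cKO/AD than in WT/AD with and without the GC correction. Ctsl had 1106 and 1108 CPM and Ctsd 537 and 375 CPM in WT/AD; cKO/AD over WT/AD gave -1.49 for Ctsl and -1.95 for Ctsd (adjusted p = 0.00642 for each), and with the GC correction -1.95 for Ctsl (adjusted p = 0.0145) and -0.60 for Ctsd (adjusted p = 0.141). Trem2, the lipid-sensing receptor of the programme, had 49.1 and 64.1 CPM in cKO/AD, 246 and 239 CPM in WT/AD and 101 CPM in each WT library. Against WT its log2 fold change was -0.83 ± 0.23 (adjusted p = 0.0597), with both cKO/AD values under both WT values, and against WT/AD it was -2.10 (adjusted p = 0.00634). Tyrobp, the signalling adaptor of TREM2, was counted at low levels, 5.28 and 5.04 CPM in cKO/AD, 24.3 and 16.5 CPM in WT/AD and 6.50 and 8.30 CPM in WT; it did not differ from WT by the test (-0.52, interval -1.49 to 0.45, adjusted p = 0.448) and was lower than in WT/AD (-1.98, adjusted p = 0.0197), but not with the GC correction (-0.86, adjusted p = 0.282).

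Over the whole list, 11 of 28 genes were lower in cKO/AD than in WT/AD and 1 was higher, where 10.2% and 7.82% of all tested genes were. With the GC correction 3 were lower and 3 higher, where 2.51% and 3.88% of all tested genes were. In WT/AD against WT, 4 of the 28 were higher, where 0.0317% of all tested genes were higher and 0.0136% lower; with cKO/AD replicate 1 left out of the shared spread, 24 of the 28 were higher in WT/AD than in WT, where 2.72% of all genes tested in that fit were. The remaining 9 members of the list in cKO/AD against WT met neither rule, among them Lgals3 (galectin-3), with 5.90 and 15.3 CPM in cKO/AD and 25.7 and 32.1 CPM in WT (-1.45, adjusted p = 0.0743), and Cd9, a tetraspanin gene, with 2257 and 1772 CPM in cKO/AD and 1235 and 1185 CPM in WT (0.74, adjusted p = 0.0538). Ptgds, the prostaglandin D synthase, 1 of the 7 genes higher in WT/AD than in WT, had 208 and 260 CPM in cKO/AD, 943 and 667 CPM in WT/AD and 145 and 143 CPM in WT. Its difference from WT was 0.70 (adjusted p = 0.095) and its difference from WT/AD -1.78 (adjusted p = 0.00679), whereas with the GC correction it was higher than in WT (1.80, adjusted p = 0.0206) and not called against WT/AD (-0.33, adjusted p = 0.365).

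Promoter windows are shown for a pair of genes above WT (Cst7, Clec7a), a gene below WT (Cx3cr1, described next) and a gene at the WT level (Lyz2), so that the sequences of genes with different outcomes can be read side by side. They are RefSeq windows of 300 bases on GRCm38.p6, from 250 bases before to 50 after the annotated start, read 5′ to 3′ on the gene's strand: Cst7 at chr2:150570165-150570464 (plus strand), Clec7a at chr6:129472730-129473029 (minus strand, the first of 2 windows in the table), Cx3cr1 at chr9:120068247-120068546 (minus) and Lyz2 at chr10:117282223-117282522 (minus). Capitals mark matches, on either strand, to GAGGAA, the core bound by the macrophage factor PU.1, and to TGANTCA, the AP-1 site bound by Fos and Jun proteins; these 2 motifs do not overlap in the windows.
Cst7: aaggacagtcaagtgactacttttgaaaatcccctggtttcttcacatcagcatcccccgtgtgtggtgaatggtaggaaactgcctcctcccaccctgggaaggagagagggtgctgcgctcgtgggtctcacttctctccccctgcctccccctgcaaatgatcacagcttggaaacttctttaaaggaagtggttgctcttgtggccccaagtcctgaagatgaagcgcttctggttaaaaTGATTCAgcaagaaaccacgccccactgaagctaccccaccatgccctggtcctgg
Clec7a: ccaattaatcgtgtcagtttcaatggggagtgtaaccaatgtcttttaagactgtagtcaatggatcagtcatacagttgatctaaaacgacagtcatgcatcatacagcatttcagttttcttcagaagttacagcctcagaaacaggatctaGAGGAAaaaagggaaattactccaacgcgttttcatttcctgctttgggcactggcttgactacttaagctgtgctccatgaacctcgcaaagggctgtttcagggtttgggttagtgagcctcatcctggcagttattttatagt
Cx3cr1: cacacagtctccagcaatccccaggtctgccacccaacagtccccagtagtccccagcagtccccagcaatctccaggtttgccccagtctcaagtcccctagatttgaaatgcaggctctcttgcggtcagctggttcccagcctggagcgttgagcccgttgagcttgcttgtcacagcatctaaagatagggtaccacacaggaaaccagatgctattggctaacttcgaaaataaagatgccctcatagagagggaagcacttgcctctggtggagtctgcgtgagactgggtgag
Lyz2: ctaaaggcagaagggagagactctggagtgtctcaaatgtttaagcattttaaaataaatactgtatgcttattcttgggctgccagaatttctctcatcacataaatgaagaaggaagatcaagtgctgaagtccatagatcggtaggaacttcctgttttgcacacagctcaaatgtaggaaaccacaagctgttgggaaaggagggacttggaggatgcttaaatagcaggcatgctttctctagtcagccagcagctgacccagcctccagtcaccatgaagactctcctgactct
The Clec7a window held 1 GAGGAA match and the Cst7 window 1 TGANTCA match, and the Cx3cr1 and Lyz2 windows held neither. GAGGAA was in 28.3% and TGANTCA in 7.93% of 27025 genes with a window. Among genes in the same class in both fits, GAGGAA was in 27.3% of 253 higher genes, 32.0% of 284 lower genes and 27.1% of 1316 genes at the WT level, against 27.2% of 13788 tested genes with a window. TGANTCA was in 2.77%, 5.28% and 4.33% of these 3 classes, against 5.54% of the tested genes. These shares are descriptions of short windows and carry no test.

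Homeostatic genes lay below WT, at the WT level or in neither class. Of 22 homeostatic microglia genes, none was higher, 8 were lower, 6 were at the WT level and 8 met neither rule. Among all tested genes 3.48% were higher, 5.36% lower and 12.7% at the WT level. The median log2 fold change of the 22 genes was -0.78. Cx3cr1, the fractalkine receptor, had 347 and 1245 CPM in the cKO/AD libraries, against 6092 and 7209 CPM in the WT libraries (-3.06 ± 0.50, adjusted p = 0.0252). Adgrg1, the adhesion receptor GPR56, had 42.8 and 120 CPM in cKO/AD and 582 and 638 CPM in WT (-2.90 ± 0.42, adjusted p = 0.021). In both genes cKO/AD replicate 1 was the lower library, and the higher cKO/AD library was still far under WT; both were steadiest calls.

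Csf1r, the receptor for the survival factors CSF1 and IL-34, had 1359 and 2286 CPM in cKO/AD and 5216 and 6653 CPM in WT (-1.70 ± 0.31, adjusted p = 0.027). P2ry13, a receptor for ADP, had 562 and 1036 CPM in cKO/AD and 2043 and 2093 CPM in WT (-1.37 ± 0.29, adjusted p = 0.0329), and Slc2a5, a fructose transporter gene, had 434 and 873 CPM in cKO/AD and 1913 and 2017 CPM in WT (-1.59 ± 0.31, adjusted p = 0.0296). These 3 also passed with the GC correction. Tmem119, a microglial surface marker, Bin1, a membrane-bending protein gene, and Sall1, a transcription factor of microglial identity, were lower by 1.78, 1.34 and 0.81 on the log2 scale (adjusted p = 0.0402, 0.0313 and 0.0374), but the GC correction placed all 3 at the WT level (-0.53, -0.48 and -0.38).

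P2ry12, the ADP receptor that guides microglial processes, was at the WT level. It had 7226 and 7394 CPM in cKO/AD and 9156 and 8484 CPM in WT (log2 fold change -0.27, interval -0.76 to 0.22). With the GC correction it was lower (-0.85, adjusted p = 0.0428). The receptor gene Gpr34 and the transcription factor gene Mef2c were at the WT level in both fits, with intervals of -0.30 to 0.94 and -0.39 to 0.49; Mef2c had 360 and 431 CPM in cKO/AD, 205 and 195 CPM in WT/AD and 345 and 421 CPM in WT, and was higher in cKO/AD than in WT/AD (0.98, adjusted p = 0.0142) without the GC correction but not with it (0.25, adjusted p = 0.504). Sparc and Cst3 were at the WT level too without the GC correction. With it Sparc left the 2-fold margin (0.68, interval -0.045 to 1.404).

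**Figure D4:**
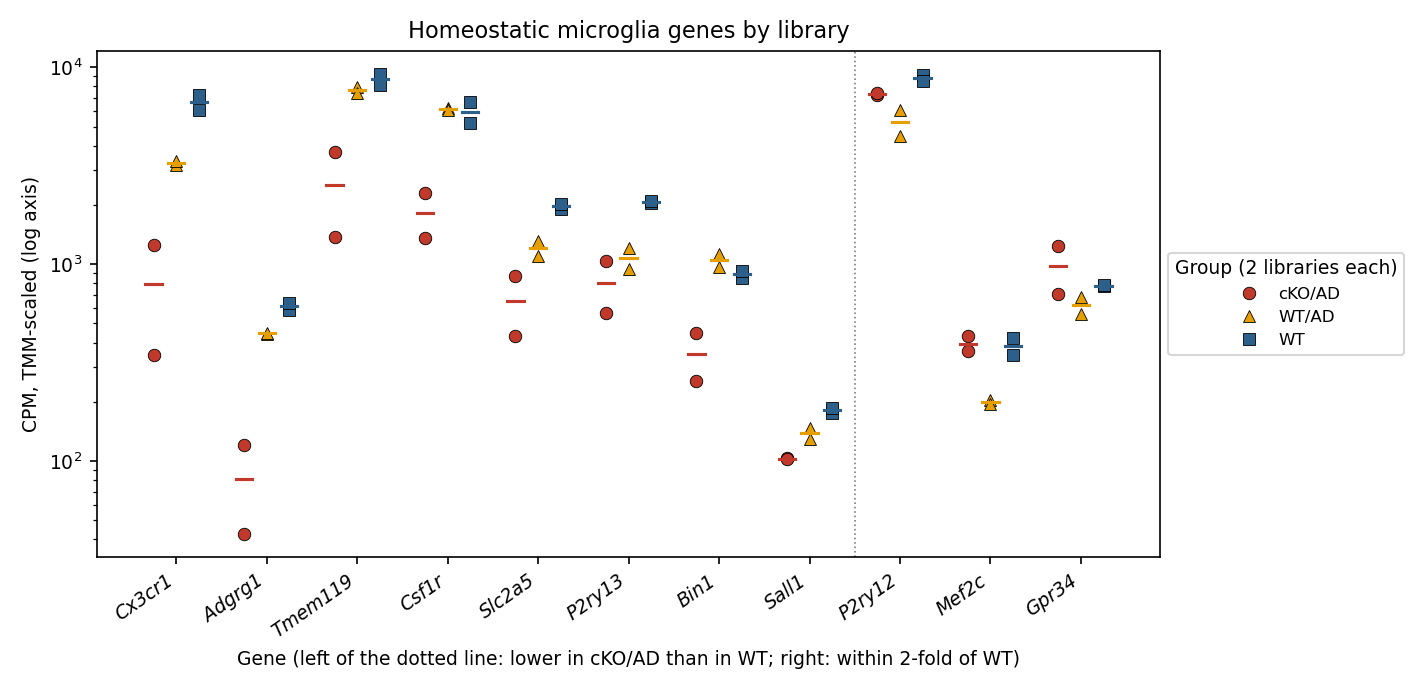
CPM per library (points, log axis) and group mean (short bars) of 11 homeostatic genes in cKO/AD, WT/AD and WT microglia. The 8 genes left of the dotted line were lower in cKO/AD than in WT, with Cx3cr1 and Adgrg1 farthest below; the 3 genes right of it were within 2-fold of WT.

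The WT/AD microglia were not called different from WT for any of these 22 genes in the fit of all libraries; with either cKO/AD library left out of the shared spread, 6 were lower and 1 was higher in WT/AD than in WT, where 2.51% of all tested genes were lower and 2.72% higher without cKO/AD replicate 1, and 2.41% and 2.44% without cKO/AD replicate 2. In cKO/AD against WT/AD, 8 of the 22 were lower and 1 was higher, where 10.2% and 7.82% of all tested genes were. With the GC correction 3 were lower and none higher, where 2.51% and 3.88% were. Cx3cr1 had 3193 and 3326 CPM in WT/AD and was lower in cKO/AD than there (-2.03, adjusted p = 0.0327). Csf1r had 6191 and 6043 CPM in WT/AD (cKO/AD over WT/AD -1.75, adjusted p = 0.0115; -0.78 with the GC correction, adjusted p = 0.0528). P2ry13 had 942 and 1202 CPM in WT/AD, and its difference between cKO/AD and WT/AD did not pass (-0.42, interval -1.09 to 0.24, adjusted p = 0.335).

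Of 32 lysosomal genes, 18 were within 2-fold of WT, 1 was higher (Cd63, above), 1 was lower and 12 met neither rule. Over all tested genes 12.7% were within 2-fold, and among abundant ones the share was 39.9% (100 to 1000 CPM) to 43.8% (over 1000 CPM). The lower one was Ctsf, a cysteine protease gene, with 179 and 329 CPM in cKO/AD and 570 and 610 CPM in WT (-1.22 ± 0.28, adjusted p = 0.0403), which the GC correction placed at the WT level (-0.17). Ctss, the cathepsin active at neutral pH, had 3577 and 3203 CPM in cKO/AD and 2800 and 2940 CPM in WT (interval -0.17 to 0.65), and Lgmn, the asparaginyl protease legumain, had 3311 and 4150 CPM in cKO/AD and 4400 and 4631 CPM in WT (interval -0.74 to 0.19). Both were at the WT level in both fits. Against WT/AD, 9 of the 32 were lower in cKO/AD and none was higher, where 10.2% and 7.82% of all tested genes were. With the GC correction 1 was lower and 2 were higher, where 2.51% and 3.88% of all tested genes were.

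Complement, phagocytic and antigen-presentation genes were mostly unplaced or at the WT level. Among all tested genes 3.48% were higher, 5.36% lower and 12.7% at the WT level. Of 24 complement and phagocytic receptor genes, 10 were at the WT level, Axl was higher, and Lrp1, an endocytic receptor gene, and Cd300a, an inhibitory receptor gene, were lower (-1.41 and -1.04, adjusted p = 0.0415 and 0.0435); with the GC correction Lrp1 was at the WT level and Cd300a had an adjusted p of 0.0505. Of 19 antigen-presentation genes, 8 were at the WT level and 3 were lower. H2-Aa, an MHC class II chain, had 104 and 141 CPM in cKO/AD and 238 and 255 CPM in WT (-1.01 ± 0.20, adjusted p = 0.03), and it was lower with the GC correction too (-1.06, adjusted p = 0.0327). Tap2, a peptide transporter gene, and Nlrc5, which encodes an activator of MHC class I genes, were lower by 1.96 and 5.10 on the log2 scale; Nlrc5 had 0 and 0.22 CPM in cKO/AD and 2.61 and 5.84 CPM in WT. With the GC correction neither Tap2 nor Nlrc5 was called (adjusted p = 0.0564 and 0.0518).

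Of 25 type I interferon genes, none was higher, 1 was lower and 7 were at the WT level, with a median of 0.04. The called counts were near the shares over all tested genes (3.48% higher, 5.36% lower). At the WT level were 12.7% of all tested genes. Slfn2, a Schlafen family gene, was the lower one, at 8.11 and 15.9 CPM in cKO/AD and 39.6 and 40.2 CPM in WT (-1.73 ± 0.35, adjusted p = 0.0313). Ifit3, an antiviral effector gene, had 24.7 and 21.8 CPM in cKO/AD and 24.7 and 23.9 CPM in WT (interval -0.81 to 0.68), and the transcription factor genes Stat2 and Irf9 had intervals of -0.47 to 0.43 and -0.98 to 0.06.

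Of 20 NF-kappaB and inflammasome genes, 1 was higher, 2 were lower and 4 were at the WT level. The shares over all tested genes were 3.48%, 5.36% and 12.7%. The 2 lower ones, Rela and Nfkb2, encode transcription factor subunits. Rela, which encodes the p65 subunit, had 1.99 and 8.82 CPM in cKO/AD and 41.8 and 52.6 CPM in WT (-3.11 ± 0.58, adjusted p = 0.0297). Nfkb2, the p100 precursor gene, had 0.06 and 0.98 CPM in cKO/AD and 11.2 and 15.6 CPM in WT (-4.64 ± 0.90, adjusted p = 0.0333). Both transcripts have 59.4% GC, and both also passed with the GC correction (-1.90 and -3.50). Chuk, the kinase that activates the p100 branch, was higher, at 352 and 375 CPM in cKO/AD and 177 and 149 CPM in WT (1.16 ± 0.20, adjusted p = 0.0236; 0.72 and 0.0611 with the GC correction).

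Most cytokine and chemokine genes met neither rule. Of 17 tested cytokine and chemokine genes, Ccl3 was higher, Ccl9 was at the WT level (interval -0.35 to 0.45) and 15 met neither rule. Among all tested genes 3.48% were higher, 5.36% lower and 12.7% at the WT level. Il1b had 0.45 and 0.71 CPM in cKO/AD and 0.66 and 2.36 CPM in WT, and its interval ran from -4.23 to 1.498. Tnf had 0 and 5.93 CPM in cKO/AD and 5.46 and 6.54 CPM in WT (interval -4.47 to 2.45), and Nlrp3, the inflammasome sensor, 0.34 and 4.95 CPM in cKO/AD and 9.64 and 5.03 CPM in WT (interval -3.87 to 0.95). The intervals of Il1b and Tnf hold 2-fold changes in both directions, so a difference from WT was not detectable at this depth and spread, and neither was its absence.

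Of 25 immediate-early and dissociation-stress genes, 10 were lower in cKO/AD, none was higher, 3 were at the WT level and 12 met neither rule. The shares over all tested genes were 5.36% lower, 3.48% higher and 12.7% at the WT level. The median of the list was -1.27. With the GC correction 6 were lower (against 1.91%), and the median was -0.52. Jun, a subunit of AP-1, had 25.6 and 39.3 CPM in cKO/AD and 142 and 150 CPM in WT (-2.17 ± 0.27, adjusted p = 0.016). Ier5, a stress-induced gene, had 35.5 and 48.9 CPM in cKO/AD and 181 and 237 CPM in WT (-2.31 ± 0.31, adjusted p = 0.0196), and both genes were steadiest calls. Klf2, a transcription factor gene, had 1.13 and 3.25 CPM in cKO/AD and 42.0 and 47.2 CPM in WT (-4.33 ± 0.52, adjusted p = 0.0164). Fosb, another AP-1 subunit gene, had no count in either cKO/AD library and 4.51 and 7.45 CPM in WT.

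Among lipid, calcium and metabolic lists, 5 or fewer genes of each were called. For the counts here and in the next paragraph, the shares over all tested genes were 3.48% higher, 5.36% lower and 12.7% at the WT level. Of 20 lipid-handling genes 3 were higher (Apoe, Lpl and Vldlr, a lipoprotein receptor gene, whose adjusted p was 0.0721 with the GC correction) and 2 were lower (Lrp1 and Pltp). Pltp, a phospholipid transfer protein gene, had 8.62 and 11.01 CPM in cKO/AD and 71.1 and 74.7 CPM in WT (-2.89 ± 0.31, adjusted p = 0.0119) and was a steadiest call. Of 35 calcium-handling and purinergic genes, 12 were at the WT level, 1 was higher and 3 were lower. Trpm7, a channel with a kinase domain, was the higher one, at 265 and 208 CPM in cKO/AD and 74.6 and 67.8 CPM in WT (1.73 ± 0.21, adjusted p = 0.0145). Calm3, a calmodulin gene, had 35.4 and 33.1 CPM in cKO/AD and 117 and 129 CPM in WT (-1.84 ± 0.20, adjusted p = 0.0118), but its transcript has 58.3% GC and the corrected value was -0.45 (adjusted p = 0.39). The UDP receptor gene P2ry6 was lower by 0.78 on the log2 scale (adjusted p = 0.038) and gave 0.31 with the correction.

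Cholesterol synthesis (23 genes, 1 higher, 1 lower, 6 at the WT level), nuclear oxidative phosphorylation (37 genes, 1 higher, 3 lower, 13 at the WT level) and glycolysis (21 table rows for 20 listed genes, 0 higher, 1 lower, 6 at the WT level) had medians of -0.02, -0.05 and -0.67; 18 of the 21 glycolysis rows had a log2 fold change below 0, and their median was -0.02 with the GC correction. None of the 67 tested ribosomal protein genes was called and 16 were at the WT level, with a median of 0.07. Against WT/AD, 11 of the 67 were lower in cKO/AD, where 10.2% of all tested genes were. With the GC correction 5 were lower than in WT/AD, where 2.51% of all tested genes were. Cell-cycle genes (29) gave 2 higher, among them the thymidylate synthase gene Tyms (1.62 ± 0.30, adjusted p = 0.0281), and 1 lower. Genes of TGF-beta signalling (15) gave 1 higher, 2 lower and 6 at the WT level. The 10 tested mitochondrially encoded genes all had log2 fold changes above 0, with a median of 0.78; the median was -0.05 with the GC correction and 0.08 without cKO/AD replicate 1. Of them mt-Cytb was called higher, with 32473 and 11776 CPM in cKO/AD and 6157 and 5204 CPM in WT (1.96 ± 0.44, adjusted p = 0.0396), and the GC correction gave 1.34 (adjusted p = 0.0676).

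Alzheimer risk genes were found on every side. Of 25, 2 were higher, 4 were lower and 7 were at the WT level (against 3.48%, 5.36% and 12.7% of all tested genes). Apoe and Picalm, a clathrin-assembly gene, were the higher ones (Picalm 1.45, adjusted p = 0.0364). Bin1, Inpp5d, a phosphatase gene of microglial receptor signalling, Spi1, which encodes PU.1, and Clu, the gene of the secreted chaperone clusterin, were lower, by 1.34, 1.34, 1.35 and 0.89. With the GC correction none of these 4 was called (Spi1 gave -0.03 and Clu 0.13), and Picalm had an adjusted p of 0.062.

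Markers of other cell types also differed between the groups. Among all tested genes 5.36% were lower and 3.48% higher, and with the GC correction 1.91% and 2.44%. Of 16 endothelial genes 8 were lower and none was higher (median -1.94), and 7 were lower with the GC correction. Their summed level was 621 and 668 CPM in cKO/AD, 1299 and 1298 CPM in WT/AD and 2063 and 2083 CPM in WT. Esam, an endothelial adhesion gene, had 8.68 and 7.13 CPM in cKO/AD and 59.7 and 68.6 CPM in WT (-3.02 ± 0.28, adjusted p = 0.0114). Of 14 neutrophil genes 6 were lower and none higher. Their sums were 1089 and 1299 CPM in cKO/AD, 1318 and 1380 CPM in WT/AD and 3133 and 3238 CPM in WT. Ngp, a granule protein gene, had 785 and 849 CPM in cKO/AD and 1831 and 1752 CPM in WT (-1.13 ± 0.17, adjusted p = 0.021). Mural and fibroblast genes (13) gave 5 lower and none higher, with Acta2, smooth muscle actin, at 21.8 and 20.1 CPM in cKO/AD and 113 and 106 CPM in WT (-2.38 ± 0.22, adjusted p = 0.0109).

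Oligodendrocyte transcripts went both ways. Of 15 genes 3 were higher and 2 lower, against 3.48% and 5.36% of all tested genes. The summed level of the list was 11029 and 8843 CPM in cKO/AD, 5830.5 and 6442 CPM in WT/AD and 5590 and 5000 CPM in WT. Mag, a myelin gene, had 132 and 166 CPM in cKO/AD and 336 and 333 CPM in WT (-1.17 ± 0.19, adjusted p = 0.0233); its transcript has 57.6% GC, and the GC-corrected value was 0.09. Astrocyte (15 genes), neuron (20) and monocyte (11) lists gave 3, 3 and 2 lower and no higher genes, and oligodendrocyte precursors (10) 1 lower. No gene was called in the lists of border-associated macrophages (12), choroid plexus (10), ependyma (7), T and NK cells (11), B cells (8) and erythrocytes (5). The part of any of these cells in the microglial results was not tested.

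**Figure D5:**
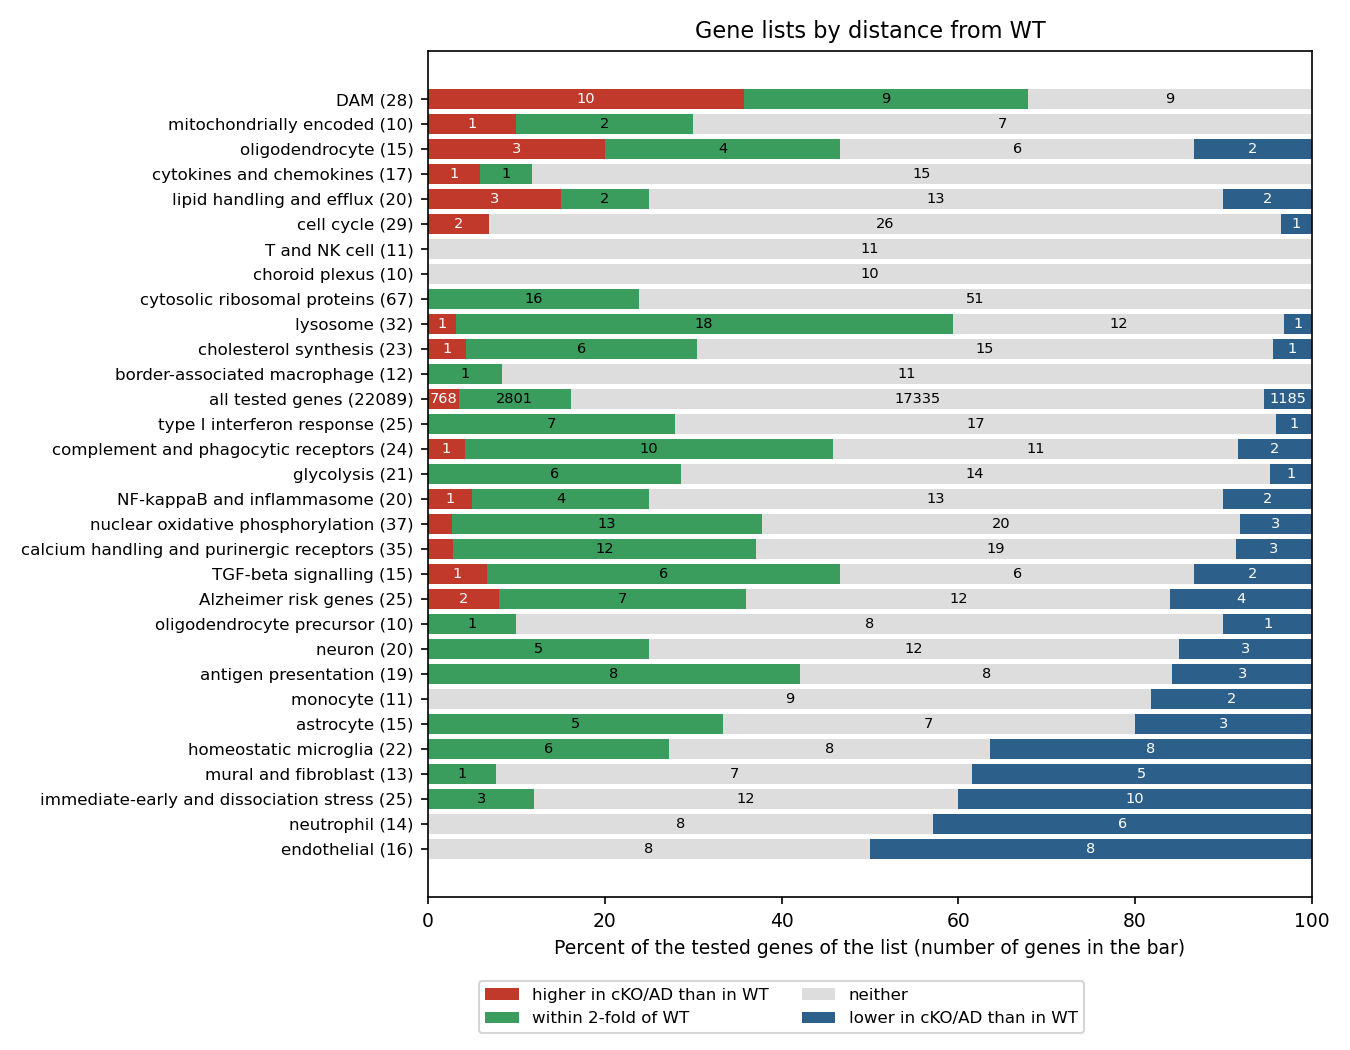
Share of the tested genes of each list (horizontal axis, percent; number of genes printed in the bars and beside the list names) that were higher in cKO/AD than in WT, at the WT level, neither, or lower. Lists of under 10 tested genes are left out; the disease-associated list (DAM) at the top has 10 of 28 genes higher and none lower, and the endothelial list at the bottom 8 of 16 lower.

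The largest rises outside these lists were of genes with varied roles. Trim33, a ubiquitin ligase gene, had 573 and 324 CPM in cKO/AD and 66.1 and 72.7 CPM in WT (2.69 ± 0.29, adjusted p = 0.0119). It had 52.7 and 57.2 CPM in WT/AD, so it stood above both other groups (3.03 over WT/AD, adjusted p = 0.00634). Micu3, a regulator of the mitochondrial calcium uniporter, had 236 and 99.5 CPM in cKO/AD, 43.0 and 42.5 CPM in WT/AD and 27.6 and 26.3 CPM in WT (2.64 ± 0.36 over WT, adjusted p = 0.0203). Ccdc163 (2.70), Uvssa, a factor of transcription-coupled DNA repair (2.70), Lancl3 (3.03) and Tmigd3 (3.66) had the other large rises, and in each of the 4 cKO/AD replicate 1 was the higher library by over 2-fold.

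The largest falls were of genes nearly silent in cKO/AD. Slc52a3, a riboflavin transporter gene, had no count in either cKO/AD library and 182 and 286 counts in the WT libraries, which is at least 153-fold lower when the group is given the 3 counts that 0 allows. Hps6, a subunit of a complex for lysosome-related organelles, had 1 count in the cKO/AD libraries together and 663 in WT, a ratio of 0.00154 (95% interval 3.9e-05 to 0.00862, counting error only). The transcription factor gene Egr4 and the neurotrophin receptor gene Ngfr likewise had 1 count each in cKO/AD, against 458 and 438 in WT; Ngfr was uneven in WT, at 2.14 and 19.8 CPM. Mfsd2a, a lipid transporter gene of the blood-brain barrier, had 0.51 and 1.16 CPM in cKO/AD and 22.4 and 36.2 CPM in WT (-5.10 ± 0.49, adjusted p = 0.0114). Ajuba, Gja4, a connexin gene of vessels, Rsl1, Sema6c, Tmem132a, Ehd2 and Rhbdf2 completed the 12 largest falls, with log2 fold changes from -7.61 to -4.81. Of the 12, Rsl1 had a transcript of 40.9% GC and the others had 54.2% to 68.2%.

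The most abundant genes at the WT level in both fits were, in falling order of WT level, Itm2b, Meg3, Lgmn, Ctsb, Pdia3, Ctss, Lyz2, Ddx5, Selenop, Fth1, Cd53 and Ywhah. Itm2b, a membrane protein gene that is mutated in familial dementias in humans, had 4811 and 4365 CPM in cKO/AD and 5519 and 5287 CPM in WT (interval -0.64 to 0.17). Pdia3, a protein-folding enzyme of the endoplasmic reticulum, had 3763 and 3994 CPM in cKO/AD, 1560 and 2270 CPM in WT/AD and 3124 and 3200 CPM in WT; it was at the WT level (interval -0.22 to 0.81) and higher than in WT/AD (1.02, adjusted p = 0.0203). Cd53, a leukocyte tetraspanin gene, and Selenop, a selenium transport gene, had intervals of -0.25 to 0.75 and -0.61 to 0.25.

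Predicted genes were the ones lowest in WT/AD. Gm10800, Gm10801 and Gm21738, the 3 genes lower in WT/AD than in WT, are predicted genes whose reads may be shared with similar copies, so their counts are uncertain. Gm10800 had 178 and 125 CPM in cKO/AD, 0.36 and 0.51 CPM in WT/AD and 846 and 653 CPM in WT, and was lower than in WT (-2.30 ± 0.32, adjusted p = 0.0199) and higher than in WT/AD (8.43, adjusted p = 0.0024). Gm10801 had the same order, with 5.96 and 6.86 CPM in cKO/AD, 0.04 and 0 CPM in WT/AD and 60.9 and 43.8 CPM in WT (-3.03 ± 0.51 against WT, adjusted p = 0.0265). Gm21738 had 6.75 and 6.60 CPM in cKO/AD and 35.1 and 23.9 CPM in WT (-2.14, adjusted p = 0.0844).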

How the data were processed

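RNA-seq of isolated microglia was deposited by the authors as a table of raw counts per gene, 1 column per library, not normalized; reads were placed on genome build mm9 per the submitters' processing notes. Aligner, counter, annotation and strand setting: not given in the sources used here. Counts were fitted with edgeR 4.0.16 (R 4.3.3): genes passing filterByExpr by group, TMM scaling, a group-means model of all 8 libraries (4 residual degrees of freedom), glmQLFit and glmQLFTest, with Benjamini-Hochberg adjusted p-values under 0.05 over 22089 genes. A gene was placed at the WT level when the 95% Wald interval of its log2 fold change lay within ±1. CPM are TMM-scaled. For the GC correction, each library's deviation was smoothed by loess (span 0.4) on the GC content of the longest GENCODE M21 transcript and the fitted curve entered the model as an offset; a GC value existed for 99.9% of tested genes. Alternatives included limma 3.58.1 and DESeq2 1.42.0. The test was also run on simulated data, and the outcome is not given here. Intervals and floors from counts cover counting error only.

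Members and the 33 gene lists (630 of 653 genes tested) were chosen with earlier results of these data known. Named genes follow a rule: Calhm2, a fixed set of microglial genes, the 12 largest rises and 12 largest falls called in both fits (groups apart, 10 CPM or more on average where higher, predicted genes left out), the 12 most abundant genes at the WT level in both fits, up to 3 called and 2 WT-level genes per list, and the genes called in WT/AD against WT. Other names (Ccl6, Cd9, Ctsz, Ank, Hif1a, Gpr34, Cst3, Slc2a5, P2ry13, P2ry6, Vldlr, Inpp5d, Picalm, Spi1, Fosb) account for members of a list and were chosen after their values were seen. Some genes are not reported here.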

Additional observations from a re-analysis of the deposited data

How the results depend on the processing

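Of the 19 settings besides thresholds, 3 left no gene called in cKO/AD against WT, where the counts were 768 higher, 1185 lower and 2801 at the WT level. These were the fit of the 2 groups alone (0 higher and 0 lower, 1633 at the WT level; 1792 higher and 2264 lower at an unadjusted p under 0.05, smallest adjusted p 0.132) and the omission of WT replicate 1 (0 and 0; 1594 and 2597 unadjusted, smallest adjusted p 0.0864) or WT replicate 2 (0 and 0; 1459 and 2438 unadjusted, smallest adjusted p 0.114). DESeq2 called 2160 and 2749, no filter 1680 and 2628, limma-voom with a weight per library 419 and 233 (64.3% of its calls higher), the GC correction 539 and 422, the GC correction with the replicate block 492 and 321, and an adjusted p of 0.01 left 2 and 2. A margin of 1.5-fold left 368 genes at the WT level. Leaving out single libraries gave 0 to 3415 higher, 0 to 5963 lower and 1284 to 4369 at the WT level; where a group is left with 1 library, that library is assumed to vary like the others. Leaving out WT/AD replicate 1 or 2 gave 124 or 116 higher, and cKO replicate 1 or 2 gave 295 or 351.

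WT/AD against WT (7 higher, 3 lower) gave 275 and 256 with DESeq2, 12 and 9 with limma-voom, 647 and 678 with library weights, 149 and 129 with no filter, 738 and 632 in the fit of the 2 groups alone, 4 higher without TMM, 1 higher with the replicate block, 6 lower with the GC correction, and 0 to 678 higher and 1 to 626 lower without single libraries; the 0 came without WT replicate 1 or 2 (431 and 489 higher unadjusted). cKO/AD against WT/AD (1728 higher, 2252 lower) gave 2899 and 3493 with DESeq2, 970 lower with library weights, 0 and 0 in the fit of the 2 groups alone (2346 and 2899 unadjusted), 857 and 554 with the GC correction, 720 and 432 with the replicate block added to it, and 1 to 3906 and 1 to 6286 without single libraries. The cause of these shifts was not tested.

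The replicate block alone gave 663 higher, 1052 lower and 2680 at the WT level. The numbers pair no animals in the labels, and the replicate differences of cKO/AD and WT correlated at 0.006. Of the named genes, P2ry6, Mag and Clu changed sign with the GC correction (0.31, 0.089 and 0.13) and with the replicate block added (0.27, 0.076 and 0.11). No other named gene called in cKO/AD against WT changed sign in that comparison in any of the 19 settings; in cKO/AD against WT/AD, Apoe gave -0.71 and, with the GC correction, 1.33. The median SE was 2.46 for genes under 1 CPM and 0.22 over 1000 CPM, and the share of genes placed at the WT level was lowest at low counts.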

Other observations

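Some of the most abundant transcripts moved outside the lists described above; they were chosen after their values were seen. Snhg11, a long noncoding RNA gene, had 28998 and 16448 CPM in cKO/AD and 5576 and 4758 CPM in WT (log2 fold change 2.14, adjusted p = 0.0203; 1.96 with the GC correction, adjusted p = 0.0254). Canx, the chaperone gene calnexin, had 6317 and 2447 CPM in cKO/AD, 586 and 756 CPM in WT/AD and 1342 and 1387 CPM in WT, and was above WT (1.68, adjusted p = 0.0442; adjusted p = 0.0713 with the GC correction) and above WT/AD (2.71, adjusted p = 0.00832).

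Gm26917, a predicted gene with a transcript of 69.1% GC, fell to 202 and 538 CPM in cKO/AD, against 7842 and 7962 CPM in WT (-4.42, adjusted p = 0.0266; -2.69 with the GC correction, adjusted p = 0.0404). Slco2b1, an organic anion transporter gene, had 164 and 404 CPM in cKO/AD and 1363 and 1676 CPM in WT (-2.42, adjusted p = 0.0233), and passed with the GC correction (-2.08, adjusted p = 0.0276). Sirpa, the receptor for the CD47 signal on phagocytes, had 517 and 1187 CPM in cKO/AD and 2219 and 2530 CPM in WT (-1.48, adjusted p = 0.0464; adjusted p = 0.0712 with the GC correction).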
